A study of Mus musculus with 3 samples.

Results

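Blood lymphocytes of old mice that had received glycyrrhizic acid (GA) were set against blood lymphocytes of young mice, to describe what still differed from young mice after the treatment. The comparison covered 16349 T and B cells of the young and aged-GA libraries, out of 19197 cells kept in these libraries, 28333 kept in all 3 libraries of the series and 44212 deposited barcodes. Cells were kept with at least 200 genes, at most 7.5% of their UMIs from mitochondrial genes and under 20% from haemoglobin genes. A UMI, or unique molecular identifier, counts 1 captured RNA molecule. T cells were cells with at least 2 UMIs of Cd3d, Cd3e and Cd3g together and at most 1 UMI of Cd79a and Cd79b, and B cells were cells with at least 3 UMIs of Cd79a and Cd79b and at most 1 of the Cd3 genes. These rules gave 5275 T and 2268 B cells in young mice, and 3427 T and 5379 B cells in aged-GA mice.

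The series measured peripheral blood mononuclear cells (PBMCs) by droplet-based single-cell RNA sequencing, in 1 library each of young mice (8 weeks, untreated per the labels), aged mice (16 months, untreated per the labels) and aged-GA mice (16 months, given GA for 1 month). The mice were female C57BL/6. Per the paper, 5 mice made up a group, GA was injected at 5 mg/kg every 2 days for 30 days, and the control group received PBS. The labels do not mention PBS, and whether the young mice were injected was not stated. The young mice were bought and the old mice came from in-house stock, and whether blood was pooled was not stated, so age, origin, treatment and library cannot be told apart between young and aged-GA mice. With 1 library a side, no test was possible and no p-value is given. Values of the aged library stand beside those of the other libraries for orientation.

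As background, mature T cells leave the thymus in a naive state, in which they circulate through lymph nodes under the chemokine receptor Ccr7 and keep the transcription factors Tcf7 and Lef1. After meeting antigen they become memory and effector cells, which express chemokines, granzymes and adhesion proteins, and such cells make up more of the pool in old mice. B cells in blood are mostly resting follicular cells bearing IgM and IgD, and class switching and differentiation to plasma cells bring IgG, IgA and the J chain. GA is the saponin of liquorice root, and its aglycone is known to inhibit the enzyme that inactivates glucocorticoids, the steroid hormones that act on lymphocytes through a nuclear receptor.

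The young library held 10842 barcodes with 58894294 UMIs and the aged-GA library 17332 barcodes with 98155671 UMIs, and these libraries shared 50 barcode sequences, 13 of them in T or B cells. The median T cell held 5026 UMIs from 1437 genes in young mice, against 5840 from 1880 in aged-GA mice, and the median B cell 3395 UMIs from 1212.5 genes against 3770 from 1471. Ribosomal protein genes took 41.2% of T cell UMIs in young and 35.1% in aged-GA mice. RNA of marker genes of other cells was seen in lymphocytes. Of 37 myeloid markers counted in T cells, 33 were at least 2-fold higher in aged-GA mice, where 7.39% of all genes were. Their summed level was 957, 6662 and 4782 CPM in young, aged and aged-GA T cells. CPM is the UMIs of a gene per 1000000 UMIs summed over those cells. In B cells 27 of 38 myeloid markers were 2-fold higher, where 3.39% of all genes were, with sums of 2395, 8450 and 4772 CPM. Some members of the myeloid list are also on lymphocyte lists used below. Ly6c2 and Ccr2 are among the memory and effector T cell genes, with Ly6c2 at 473 CPM in aged-GA T cells. Ctss is among the MHC class II genes, at 479 CPM in young B cells. The part of these sums that came from other cells is thus not known. S100a8, a defining neutrophil gene, stood at 112, 1003 and 1024 CPM in T cells, and outside both gates at 1580 CPM (young) and 10014 CPM (aged-GA). Haemoglobin took 0.0982% of T cell UMIs in young and 0.553% in aged-GA mice. The summed level of 18 B cell markers in T cells was 216, 619 and 909 CPM, with Cd79a and Cd79b, which the gate limits, among them. The part of free RNA and of doublets in the differences below was not tested, and values from cells without any UMI of S100a8, S100a9, Lyz2, Pf4 or Ppbp are given beside the main gene groups and some of the named genes. Such cells were 5110 of 5275 young and 1481 of 3427 aged-GA T cells. Among B cells they were 2196 of 2268 young and 2476 of 5379 aged-GA cells. This choice thus left out few young but most aged-GA lymphocytes, and its effect on the make-up and depth of the cells left was not tested.

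T cells were a smaller and B cells a larger share of the kept cells in aged-GA than in young mice. The T cell share was 63.1% in the young library (95% exact binomial interval 62.1 to 64.2), 23.5% in the aged and 31.6% in the aged-GA library (30.7 to 32.5). B cells made up 27.1% (26.2 to 28.1), 45.6% and 49.6% (48.7 to 50.6). Per B cell there were 2.33, 0.515 and 0.637 T cells in these libraries. The intervals of young and aged-GA mice did not overlap, but they cover counting error only. Cells outside both gates made up 9.71%, 30.9% and 18.8% of kept cells, and cells with UMIs of both gates above the limits 4.13%, 3.17% and 6.22%.

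Among T cells, the CD8 share was higher in aged-GA mice. Cells with at least 2 UMIs of Cd8a and Cd8b1, the chains of the CD8 co-receptor, and none of Cd4 made up 33.5% of young T cells (32.2 to 34.8), 36.9% of aged T cells and 45.5% of aged-GA T cells (43.8 to 47.2). Cells with Cd4, the helper T cell co-receptor, and no CD8 UMI made up 19.4%, 26.0% and 21.8%. The other T cells, which had too few UMIs of either co-receptor or UMIs of both, made up 47.1%, 37.1% and 32.7%. A co-receptor call needs UMIs, and the median T cell was deeper in aged-GA mice, as given above; the part of depth in these shares was not tested. Within all T cells Cd8a stood at 103, 161 and 177 CPM in young, aged and aged-GA mice, Cd8b1 at 298, 332 and 382, and Cd4 at 52.8, 85.9 and 61.9.

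**Figure D1:**
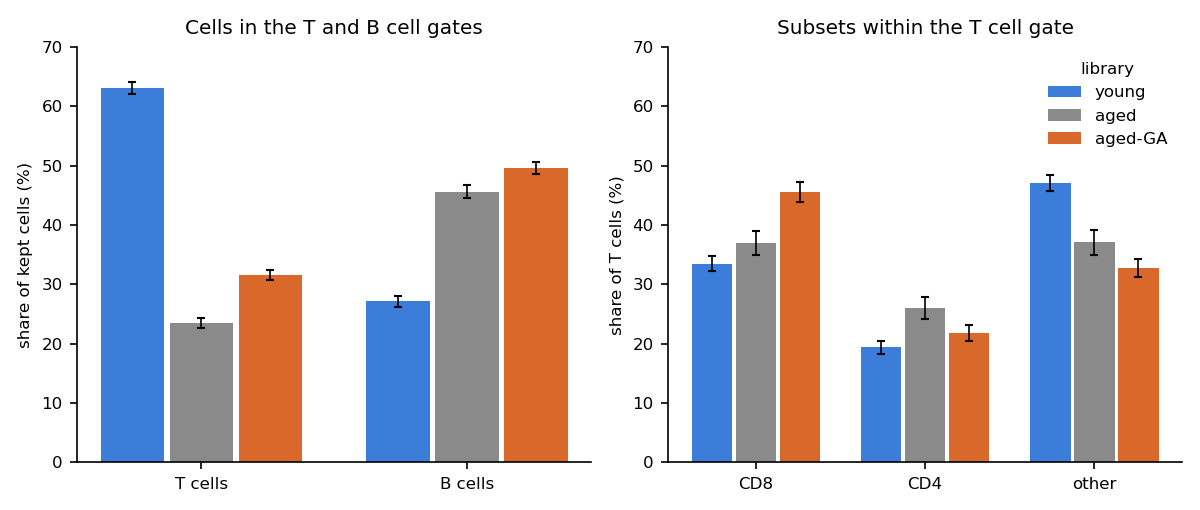
Shares of cells in the young, aged and aged-GA libraries, with exact binomial 95% intervals that cover counting error only. Left, the T and B gates as percent of kept cells; right, CD8, CD4 and other cells as percent of T cells. T cells made up 63.1% of kept cells in young and 31.6% in aged-GA mice.

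Genes were compared by their summed UMIs, as a log2 ratio of aged-GA over young CPM with 1 CPM added to each, for genes whose UMIs in the young and aged-GA libraries came to 100 or more. A gene with few UMIs in young mice met this limit only if it was high in aged-GA mice. The counts of higher genes below, in the lists and over all genes, are in part fixed by this limit. In T cells 9952 genes were counted, of which 735 were at least 2-fold higher in aged-GA mice (7.39% of the genes) and 67 at least 2-fold lower (0.673%). In B cells 9491 genes were counted, 322 of them 2-fold higher (3.39%) and 59 lower (0.622%). The median of all genes lay above 0, at 0.30 in T and 0.22 in B cells, and 80.9% and 75.7% of genes lay above 0. With the ratios centred on those medians, the split was 423 higher and 153 lower in T cells and 187 higher and 100 lower in B cells. Of 9054 genes counted in both classes, 0 were 2-fold higher in one class and 2-fold lower in the other.

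**Figure D2:**
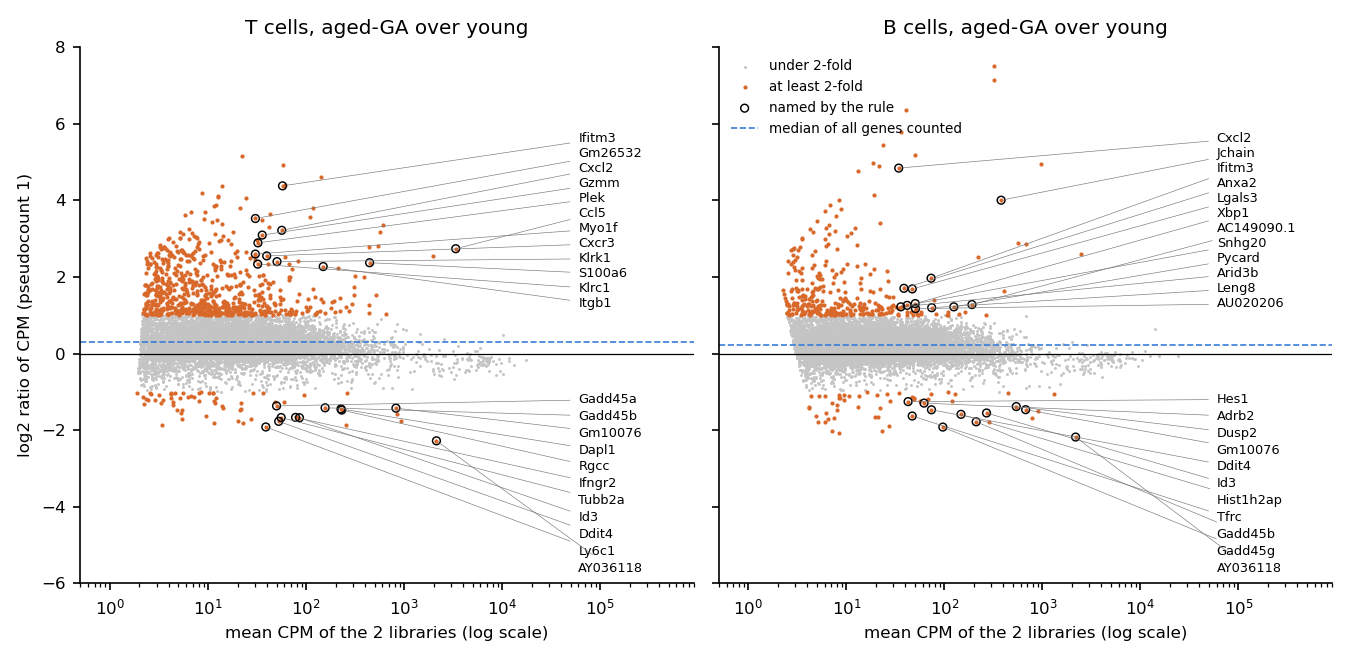
Log2 ratio of aged-GA over young libraries (vertical axis) against the mean CPM of both libraries (horizontal, log axis) for each gene counted in T cells (9952) and B cells (9491). Orange points differ by at least 2-fold, circles mark genes named by rule and the dashed line is the median of all genes, 0.30 in T and 0.22 in B cells; more orange points lie above 0 than below.

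T cells of aged-GA mice carried more RNA of memory and effector genes than those of young mice. Of 28 memory and effector genes, 21 were at least 2-fold higher and 0 lower, at a median log2 ratio of 1.77. Of all genes in T cells, 7.39% were higher and 0.673% lower by that measure. The median was 1.85 in CD8 and 1.74 in CD4 T cells, and 1.64 in T cells without myeloid or platelet UMIs. Summed over the list, the level was 2276, 9962 and 9311 CPM in young, aged and aged-GA T cells.

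The chemokine Ccl5, which draws T cells and monocytes and is kept as ready RNA in memory CD8 T cells, held the largest part of that sum in all 3 libraries. It stood at 879 CPM in young (95% exact Poisson interval 868 to 890.3), 5902 in aged and 5860.02 in aged-GA T cells (5828 to 5892), a log2 ratio of 2.74. The ratio was larger in CD8 T cells, where Ccl5 went from 1050.45 to 8207 CPM, than in CD4 T cells, from 382 to 1022 CPM. After thinning each cell to 1000 UMIs, a UMI of Ccl5 was seen in 8.94%, 37.1% and 44.5% of young, aged and aged-GA T cells, against 1.94% of young and 9.37% of aged-GA B cells. Outside both gates, where NK cells can lie, Ccl5 was lower in aged-GA mice, at 3490.14 against 5272 CPM. Ccl5 is coded at chr11:83525778-83530518 on the minus strand (GRCm38, GENCODE M21).

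Genes of cytotoxic granules were higher to unequal extents. Gzmk, a granzyme of memory CD8 T cells, stood at 1.63, 39.9 and 26.3 CPM in young, aged and aged-GA T cells (log2 ratio 3.38). Gzmm, another granzyme, stood at 6.72, 28.9 and 64.8 CPM, a ratio of 3.09, and it was the CD8 T cells that carried it, with 111 CPM in aged-GA CD8 and 1.51 CPM in CD4 T cells. Nkg7, a membrane protein of cytotoxic granules, was higher by less, at 264, 831 and 762 CPM (1.53), and was seen in 15.1%, 37.4% and 37.1% of thinned T cells. Gzmb, the granzyme of acute killing, stood at 12.4, 60.7 and 30.4 CPM (1.22). Prf1, or perforin, and Gzma lay below 2-fold, at ratios of 0.82 and 0.44. Gzma is also an NK cell gene, and its level was 105, 377 and 143 CPM.

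Transcription factors and receptors of effector cells were among the higher genes. Eomes, a T-box factor that sets the memory CD8 program, stood at 8.66, 47.8 and 51.2 CPM in young, aged and aged-GA T cells (2.43). Tbx21, the T-box factor of interferon-producing cells, stood at 2.69, 13.2 and 11.9 CPM (1.81), and Ifng, a cytokine gene that Tbx21 is known to activate, at 3.996, 28.4 and 25.3 CPM (2.39). The chemokine receptor Cxcr3, a T-box target that guides T cells to inflamed tissue, stood at 10.9, 66.7 and 68.5 CPM (2.55) and was seen in 0.74% of young and 6.92% of aged-GA thinned T cells, against 0.09% and 0.43% of B cells. Unlike Ccl5, it reached a higher level in aged-GA CD4 T cells, 114 CPM against 11.2 in young ones, than in CD8 T cells, 54.7 against 10.3 CPM. Cd44, the hyaluronan receptor used to sort memory T cells, stood at 26.2, 114 and 108 CPM (1.998), and Il2rb, a receptor chain for IL-2 and IL-15, at 103, 255 and 263 CPM (1.34). The NK-type receptors Klrk1 and Klrc1, which CD8 memory T cells also carry, had ratios of 2.40 and 2.33, and Klrg1, a receptor of late effector cells, 0.72. Ccl4, a chemokine that neutrophils and macrophages make too, stood at 6.51, 176 and 57.3 CPM (2.96).

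The promoter of Nkg7 is shown because it holds a T-box element near the start listed by RefSeq, and control of the gene by T-box factors was not tested. It spans 250 bases before to 50 after that start (RefSeq, GRCm38.p6, chr7:43436888-43437187, plus strand), and capitals mark AGGTGTGA, found 6 bases upstream of it. GENCODE M21 starts the gene at 43437073, which lies before the motif. The motif, sought on both strands, was in 1.28% of all promoter windows and in those of 2 of 21 memory and effector genes with a window, Nkg7 and Plac8. A match of letters is a description and not a binding site.
Nkg7: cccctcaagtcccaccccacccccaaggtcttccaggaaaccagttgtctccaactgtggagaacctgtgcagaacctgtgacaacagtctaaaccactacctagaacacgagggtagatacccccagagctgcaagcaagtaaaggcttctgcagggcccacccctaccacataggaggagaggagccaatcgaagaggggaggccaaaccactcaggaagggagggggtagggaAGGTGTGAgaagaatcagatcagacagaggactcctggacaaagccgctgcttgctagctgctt

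**Figure D3:**
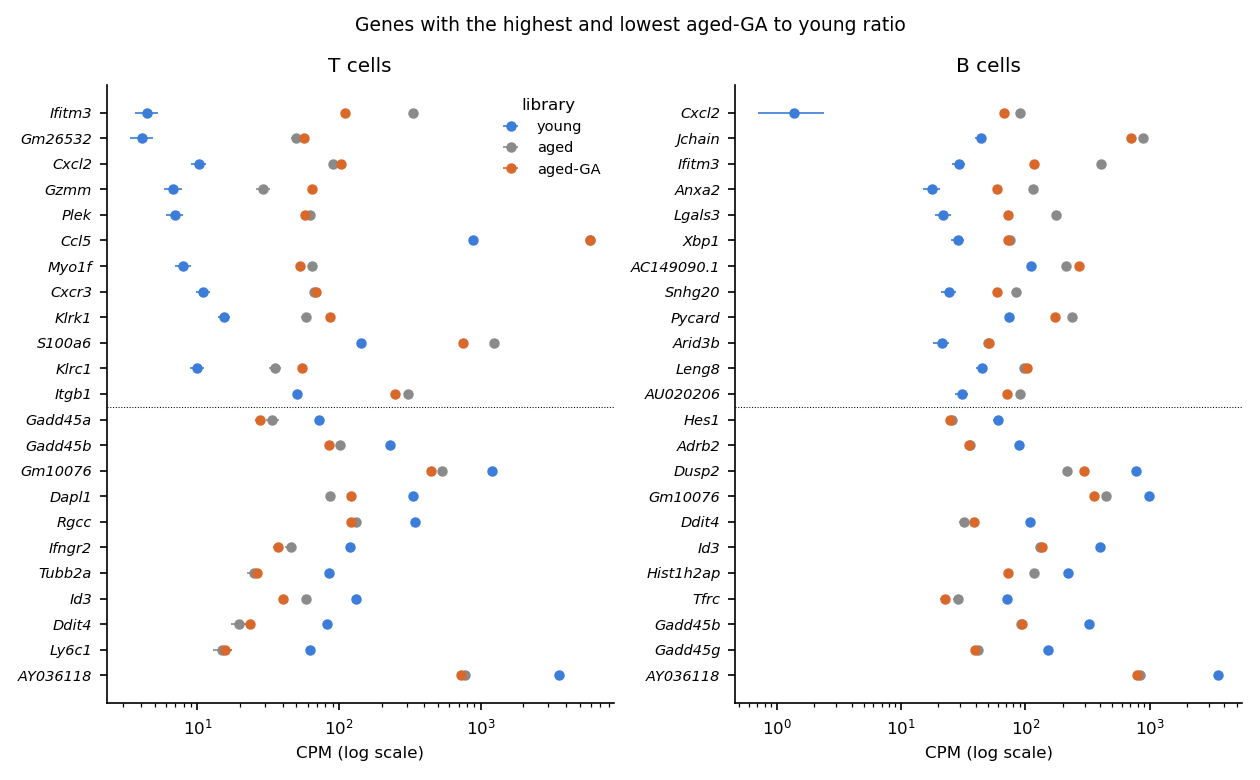
Levels of genes named by rule in T cells (left) and B cells (right), in CPM on a log axis, for the young, aged and aged-GA libraries, with exact Poisson 95% intervals that cover counting error only. In T cells Ccl5 went from 879 to 5860.02 CPM between young and aged-GA mice, and AY036118 from 3551 to 731 CPM.

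S100, annexin and adhesion genes, which mark memory lymphocytes and also abound in myeloid cells, were higher as a group. Of 16 counted, 12 were at least 2-fold higher, where 7.39% of all genes were, and 0 lower. The median was 1.17, and 1.04 in T cells without myeloid or platelet UMIs. S100a6, a calcium-binding protein, stood at 144, 1231 and 747 CPM in young, aged and aged-GA T cells (2.37). It was seen in 3.45%, 37.2% and 31.9% of thinned T cells, while the B cell shares of young and aged-GA mice were 3.18% and 5.96%. Itgb1, the beta chain of adhesion receptors for matrix proteins, stood at 50.8, 307 and 249 CPM (2.27), with ratios of 2.78 in CD4 and 2.02 in CD8 T cells. Ahnak, a large scaffold protein, stood at 73.6, 419 and 346 CPM (2.22), and Anxa1, an annexin, had a ratio of 2.28. S100a4 stood at 107, 497 and 279 CPM (1.37), and Lgals1, a galectin, at 172, 591 and 372 CPM (1.11). Like the other genes of the list, both lay nearer to young in aged-GA than in aged mice. The list median for aged over young T cells was 1.65. Crip1 and Itgb7 lay under 2-fold, at 0.78 and 0.31.

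The gain lay in the number of cells with such RNA as well as in its sum. At 1000 UMIs a cell, 51.3% of young T cells had no gene of the memory list, against 23.2% of aged and 23.6% of aged-GA T cells. At least 3 of its genes were seen in 650 of 5269 young T cells (12.3%), 943 of 2144 aged and 1570 of 3424 aged-GA T cells. The mean number per T cell was 0.989, 2.74 and 2.71 in young, aged and aged-GA mice, and in B cells, which lack most of these genes, 0.631, 0.756 and 0.732. CD8 T cells had means of 1.73, 3.96 and 3.61 and CD4 T cells 0.470, 1.45 and 1.43. The order young, aged-GA, aged therefore held in both subsets, with the aged-GA mean close to the aged one.

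**Figure D4:**
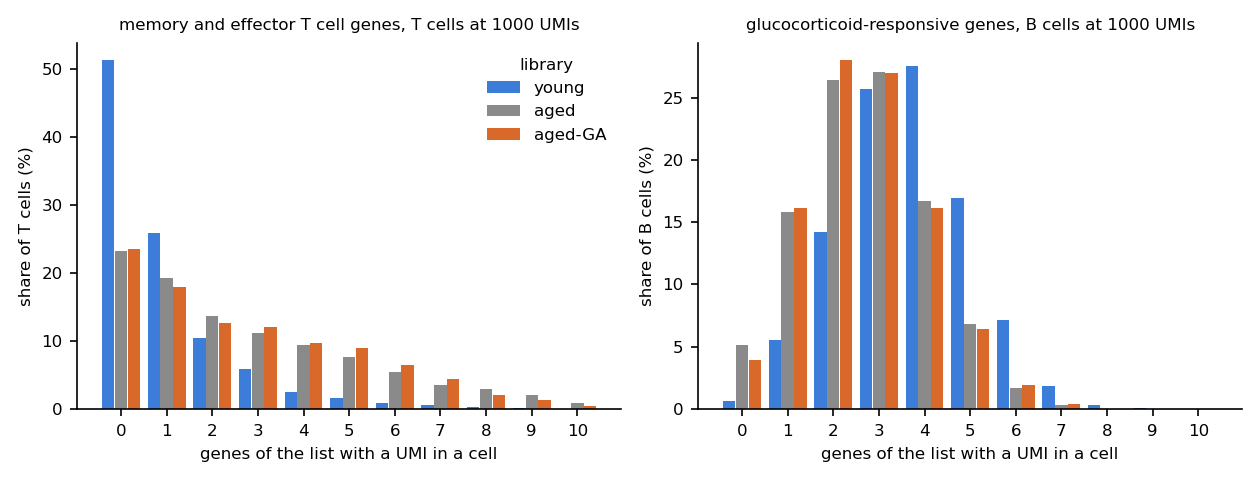
Number of genes of the memory and effector list per T cell (left) and of the glucocorticoid-responsive list per B cell (right) at 1000 UMIs a cell, as percent of cells, in 3 libraries. No memory gene was seen in 51.3% of young and 23.6% of aged-GA T cells, and the mean of glucocorticoid-responsive genes per B cell was 3.66 in young and 2.64 in aged-GA mice.

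Naive T cell genes were lower, by smaller amounts. Of 20, 0 were 2-fold higher and 1 lower, where 7.39% of all genes were higher and 0.673% lower. The median was -0.19, and 1 of 20 lay above the median of all genes. Lef1, a transcription factor of naive T cells, stood at 629, 312 and 368 CPM in young, aged and aged-GA T cells (-0.77), and Il7r, the survival receptor for IL-7, at 980.1, 588 and 723 CPM (-0.44). Satb1, a chromatin organiser, stood at 688, 450.1 and 471 CPM (-0.54) and Ccr7 at 487, 349 and 400 CPM (-0.29). Tcf7, with a ratio of -0.10, lay close to equal. Dapl1, a gene of resting naive T cells, had the lowest value of the list, at 333, 86.5 and 121 CPM (-1.45), and was seen in 21.9%, 5.32% and 8.24% of thinned T cells.

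A smaller share of genes passed 2-fold among T cells without memory RNA. Among T cells with no UMI of Ccl5, Cd44, Itgb1, S100a4 or S100a6 and with UMIs of naive T cell homing genes, a subset chosen after the values were seen, 135 of 8030 genes counted were 2-fold higher (1.68%) and 41 lower (0.511%). The aged-GA side of this subset held 638 cells with 3562113 UMIs, so fewer genes could be counted than in all T cells. These cells made up 67.2%, 20.6% and 18.6% of young, aged and aged-GA T cells. The median of the memory and effector list was 0.18 there, that of the S100, annexin and adhesion list 0.39, and that of the naive list 0.22, at a median of all genes of 0.22. For the memory lists this is in part fixed by the choice of cells. Among lower genes, Dapl1 had a ratio of -0.84 in this subset, Ly6c1 -0.75 and Ifngr2 -0.58, while AY036118 had -2.31, Ddit4 -1.47 and Gadd45a -1.32.

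T cell receptor signalling genes passed 2-fold about as often as genes in general, with 2 of 31 at least 2-fold higher, where 7.39% of all genes were, and 0 lower. Their median was 0.63, beside 0.30 for all genes. One of them was Malt1, a protease that links the receptor to NF-kB, at 127, 256 and 269 CPM in young, aged and aged-GA mice (1.08). Lat, the adaptor of the receptor, was on the lower side, at -0.34. Of 11 checkpoint and exhaustion genes counted, 5 were 2-fold higher and 0 lower, at a median of 0.38. Among the 5, Lag3, Tox2 and Entpd1 had 24, 24 and 69 UMIs in young and 115, 127 and 196 in aged-GA T cells. They reached 100 UMIs through the aged-GA library, so this count cannot show how often such genes were higher. Nt5e, the ectoenzyme CD73, stood at 17.8, 54.8 and 51.2 CPM (1.48), and Lag3, an inhibitory receptor, at 0.85, 8.33 and 5.31 CPM. Ctla4 had a ratio of 0.38 and the exhaustion factor Tox -0.24, and Pdcd1, which codes for PD-1, had too few UMIs to be counted, at 0.99, 3.94 and 2.77 CPM.

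Regulatory T cell genes gave 1 of 10 at least 2-fold higher and a median of 0.11 over all T cells. In CD4 T cells, to which most regulatory T cells belong, 3 of 6 counted were 2-fold higher and 0 lower, at a median of 0.95, where 7.89% of all genes were 2-fold higher and 0.712% lower, and in CD8 T cells the median was -0.24. The gene past 2-fold over all T cells was Ikzf2, or Helios, at 34.6, 107 and 76.6 CPM in young, aged and aged-GA T cells (1.13), with a ratio of 2.55 in CD4 T cells. Foxp3, the factor that defines regulatory T cells, stood at 5.06, 10.8 and 5.54 CPM, and in CD4 T cells at 9.09 CPM in young and 15.1 in aged-GA mice. Genes of receptors that share the common gamma chain and of their signalling had 2 of 18 at least 2-fold higher over all T cells. The share of all genes was 7.39%, and the list median was 0.25. Il15ra had 1.49 beside Il2rb, and Bcl2, a survival gene downstream of these receptors, stood at 398, 546 and 674 CPM (0.76).

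Several named genes with high ratios in T cells are genes of granulocytes and monocytes. Ifitm3, an interferon-induced membrane protein, stood at 4.39, 332 and 111 CPM (4.38), and 1% of the T cells held 73.4% of its UMIs in aged-GA mice. Its ratio was 2.63 in T cells without myeloid or platelet UMIs, and it was seen in 3.62% of aged-GA T cells and 3.13% of aged-GA B cells, shares that were nearly alike in both classes. Cxcl2, a neutrophil chemokine, stood at 10.2, 89.98 and 103 CPM (3.22) and had a ratio of 2.13 without those cells, with 1406 CPM outside the gates in aged-GA mice. By contrast Ccl5 had 2.77 in the cells without myeloid UMIs. Plek and Myo1f, genes of the leukocyte cytoskeleton, had ratios of 2.89 and 2.60, and Gm26532, a noncoding RNA at chr8:84208920-84209609, stood at 4.03, 49.6 and 56.9 CPM (3.52).

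The genes named as lowest in T cells mixed naive cell genes, stress genes and genes with copies elsewhere. Gadd45a and Gadd45b, which are induced by stress and DNA damage, stood at 72.6, 33.8 and 27.5 CPM (-1.37) and at 228, 102 and 84.9 CPM (-1.42) in young, aged and aged-GA T cells. Ddit4, an inhibitor of mTOR that glucocorticoids and stress induce, stood at 82.0, 19.7 and 23.3 CPM (-1.77), and Rgcc, a cell cycle regulator, at 341, 131 and 122 CPM (-1.48). Id3, an inhibitor of E proteins that naive T cells keep, stood at 131, 58.8 and 40.4 CPM (-1.68). Ifngr2, the signalling chain of the interferon-gamma receptor, stood at 119.6, 45.5 and 36.9 CPM (-1.67), and Tubb2a, a tubulin, at 85.4, 25.2 and 26.1 CPM (-1.67). Ly6c1 stood at 62.1, 15.0 and 15.7 CPM (-1.92), whereas its paralog Ly6c2 was higher, at 142, 377 and 473 CPM (1.73). The pair lies on chromosome 15 with near-identical sequence, so the split of reads between them is uncertain, and Ly6c1 stood at 101 CPM in young CD4 and at 3.11 CPM in young CD8 T cells. Ly6c2 is also counted among the memory and effector genes that were at least 2-fold higher.

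In B cells class-switched antibody and plasma cell genes had high ratios and were carried by few cells. Of 11 immunoglobulin constant genes counted, 5 were at least 2-fold higher, where 3.39% of all genes were, and 0 lower, at a median of 0.98. Among the 5, Ighg1, Ighg2b, Ighg2c and Ighg3 had 0, 26, 1 and 43 UMIs in young B cells. They reached 100 UMIs through the aged-GA library, so the count cannot show how often such genes were higher. Igha, the constant gene of IgA (chr12:113254830-113260236, minus strand), stood at 60.1, 2378 and 1876 CPM in young, aged and aged-GA B cells (4.94). It was seen in 0.22%, 4.995% and 4.19% of thinned B cells, with 0.04% in young and 1.99% in aged-GA T cells, and 1% of B cells held 98.3% of its UMIs in aged-GA mice. Ighg1 had 0 UMIs in young B cells, which allows up to 3, and 1971 in aged-GA B cells, and Ighg2c had 1 and 1145 UMIs, so no fold is given for either. Ighm and Ighd, the genes of unswitched cells, differed little, at 2619, 2994 and 3039 CPM (0.21) and at 745, 884 and 866 CPM (0.22). The kappa gene Igkc stood at 11021, 17293 and 17041 CPM (0.63). Its ratio was -0.02 in B cells without a UMI of Igha, Jchain or a switched Ighg gene, a choice described below. In aged-GA mice 1% of B cells held 40.9% of its UMIs, against 6.97% in young mice.

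Plasma cell genes gave 4 of 13 at least 2-fold higher, where 3.39% of all genes were, and a median of 0.54. Among the 4, Tnfrsf17 and Derl3 had 3 and 23 UMIs in young B cells and were counted through the aged-GA library. Jchain, which joins secreted IgA and IgM, stood at 43.6, 891 and 714 CPM (4.001), was seen in 0.09%, 2.23% and 1.66% of thinned B cells, and had 98.7% of its aged-GA UMIs in 1% of the cells. Xbp1, the factor of the secretory program, stood at 28.6, 74.9 and 72.1 CPM (1.303), and Tnfrsf17, the plasma cell receptor BCMA, at 0.34, 25.7 and 17.3 CPM with 3 UMIs in young mice. Mzb1, an endoplasmic reticulum chaperone of these cells, had 0.54, and Sdc1, the plasma cell marker CD138, -0.40. Without cells that had a UMI of Igha, Jchain or a switched Ighg gene, an alternative chosen after the values were seen, the median was 0.26 for the constant genes and 0.08 for the plasma cell genes, and Xbp1 had 0.49. The cells without such a UMI made up 98.4%, 83.1% and 78.4% of young, aged and aged-GA B cells. In those cells 241 of 9070 genes counted were 2-fold higher (2.66%) and 58 lower (0.639%).

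Age-associated and memory B cell genes gave 6 of 17 counted at least 2-fold higher, where 3.39% of all genes were. Their median was 0.63, and 0.62 in B cells without myeloid or platelet UMIs. Among the 6, Nt5e, Cxcr3, Fas, Itgam and Zbtb32 had 11, 10, 18, 32 and 37 UMIs in young B cells. They reached 100 UMIs through the aged-GA library, so the count cannot show how often such genes were higher. Below 2-fold lay, among others, Cd80, Pdcd1lg2, Fcrl5 and Tlr7, at 0.40, 0.37, 0.04 and -0.03. Nt5e, which memory B cells carry, stood at 1.26, 5.71 and 10.99 CPM (2.41) and Fas, the death receptor, at 2.06, 9.74 and 9.42 CPM (1.77). Itgam and S100a4, which had ratios of 2.28 and 1.47, are also myeloid genes, and S100a4 stood at 15.5, 188 and 44.7 CPM. Zeb2, a transcription factor of age-associated B cells, had 0.65, and Tbx21 and Itgax, which define these cells, had too few UMIs to be counted. B cell receptor signalling genes gave 1 of 27 at least 2-fold higher, a share close to the 3.39% of all genes, and a median of 0.46 beside 0.22 for all genes. That gene was Cd22, an inhibitory co-receptor, at 104, 247 and 221 CPM (1.08), seen in 10.8%, 24.0% and 19.4% of thinned B cells, and the kinases Syk and Btk had 0.58 and -0.21.

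Genes of resting B cells lay close to the young level. Follicular and mature B cell genes had a median of 0.21 with 1 of 20 at least 2-fold higher, the same Cd22 as above, and 0 lower. MHC class II genes had a median of -0.01 with 0 of 12 past 2-fold in either direction. Ciita, the master regulator of MHC class II, stood at 92.2, 175 and 185 CPM, just short of 2-fold. Of all genes in B cells, 3.39% were at least 2-fold higher and 0.622% lower. Pax5 and Ebf1, the factors that hold B cell identity, went opposite ways, with 0.79 and -0.32. Genes of transitional B cells, which have newly left the bone marrow, had a median of -0.30, with 0 of 10 past 2-fold. They were split, with 7 below 0 and 3 above. The lowest were Myb at -0.93, Sox4 at -0.71 and Cd24a at -0.56, and those above were Cd93 at 0.11, Cd9 at 0.30 and Sp100 at 0.42. Myb rested on 72 UMIs in young and 93 in aged-GA B cells. BAFF receptor and survival genes had a median of 0.40 with 1 of 14 at least 2-fold higher, where 3.39% of all genes were. That gene was Tnfrsf17, also counted among the plasma cell genes, with 3 UMIs in young and 418 in aged-GA B cells. It was counted through the aged-GA library, where 1% of B cells held 100% of its UMIs.

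Genes that respond to glucocorticoids were lower in aged-GA than in young B cells. Of 16 counted, 6 were at least 2-fold lower, where 0.622% of all genes were, and 0 higher, and the median was -0.86. Tsc22d3, which codes for the glucocorticoid-induced leucine zipper GILZ, stood at 1774, 686 and 853 CPM in young, aged and aged-GA B cells (-1.06), and was seen in 81.5%, 50.6% and 55.8% of thinned B cells. Sgk1, a kinase induced by the hormone, stood at 68.1, 33.5 and 30.2 CPM (-1.15), Errfi1, an inhibitor of the EGF receptor, at 15.0, 4.53 and 6.36 CPM (-1.12), and Ddit4 at 109, 32.3 and 38.7 CPM (-1.47). Sesn1, a stress-induced sestrin, stood at 597, 279 and 294 CPM (-1.02). Mt1, a metallothionein, lay below both other libraries in aged-GA mice, at 32.3, 43.4 and 9.58 CPM (-1.65). Fkbp5, a chaperone gene used as a readout of the hormone, had -0.24, and Per1 and Klf9, a clock gene and a Kruppel-like factor, were on the higher side with 0.47 and 0.45.

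The lower level was also seen per cell and without the cells in doubt. The mean number of list genes per thinned B cell was 3.66, 2.63 and 2.64 for young, aged and aged-GA mice, and per T cell 3.31, 2.54 and 2.63. The median of the list in B cells was -0.84 without cells that had switched antibody UMIs and -0.83 without cells that had myeloid or platelet UMIs. In T cells the median was -0.47, with 1 of 16 at least 2-fold lower, Ddit4, where 0.673% of all genes were. The medians were -0.36 in CD8 and -0.38 in CD4 T cells. Txnip, which limits glucose uptake, stood at 1570, 655 and 828 CPM in T cells (-0.92) and at 1525, 773 and 829 CPM in B cells (-0.88). Tsc22d3 in T cells stood at 798, 342 and 426 CPM (-0.90).

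The promoter of Sgk1 is shown because it held the only full palindromic glucocorticoid response element among the list genes. It spans chr10:21993640-21993939 on the plus strand (RefSeq, GRCm38.p6), 250 bases before to 50 after one of the 6 listed starts of the gene. Capitals mark the match to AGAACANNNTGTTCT, which lies 174 bases upstream of that start. The element was in 1 of the 17 list genes with a window and in 3 of 32851 windows of all genes (0.00913%).
Sgk1: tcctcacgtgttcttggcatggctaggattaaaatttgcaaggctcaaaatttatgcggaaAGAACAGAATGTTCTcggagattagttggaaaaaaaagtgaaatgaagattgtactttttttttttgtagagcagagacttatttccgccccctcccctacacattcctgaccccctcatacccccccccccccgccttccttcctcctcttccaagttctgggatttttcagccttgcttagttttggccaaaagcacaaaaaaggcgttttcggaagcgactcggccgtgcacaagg

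Immediate early genes, which switch on within minutes of a stimulus or of cell handling, were lower in B cells. Of 31 counted, 2 were at least 2-fold lower, where 0.622% of all genes were, and 0 higher, with a median of -0.41. Dusp2, a phosphatase that restrains MAP kinases (chr2:127336159-127338376, plus strand), stood at 783, 217 and 299 CPM in young, aged and aged-GA B cells (-1.39) and was seen in 50.5%, 19.6% and 25.2% of thinned B cells. Myc stood at 99.0, 39.7 and 46.9 CPM (-1.06), Junb at 1939, 789 and 1113 CPM (-0.80) and Cd69, an early activation receptor, at 438, 172 and 262 CPM (-0.74). Fos and Egr1 did not share that direction, at 286, 269 and 326 CPM (0.19) and at 34.7, 50.5 and 55.9 CPM (0.67). In T cells the list had a median of 0.01, with 1 of 32 at least 2-fold higher, where 7.39% of all genes were, and 0 lower. That gene was Atf3, a stress-induced factor that myeloid cells express too, at 1.91, 32.1 and 16.1 CPM. Dusp2 had -0.64 and Ier5 -0.73 there.

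The promoter of Dusp1, a MAP kinase phosphatase that belongs to both the immediate early and the glucocorticoid-responsive list, is shown because it holds a cAMP response element. Dusp1 stood at 477, 258 and 239 CPM in B cells (-0.99), just short of 2-fold. The window spans chr17:26508423-26508722 on the minus strand (RefSeq, GRCm38.p6), 250 bases before to 50 after the start, and capitals mark TGACGTCA, 135 bases upstream. This motif was in 1.79% of all windows and in those of 3 of 25 immediate early genes with a window, Btg2, Dusp1 and Ppp1r15a.
Dusp1: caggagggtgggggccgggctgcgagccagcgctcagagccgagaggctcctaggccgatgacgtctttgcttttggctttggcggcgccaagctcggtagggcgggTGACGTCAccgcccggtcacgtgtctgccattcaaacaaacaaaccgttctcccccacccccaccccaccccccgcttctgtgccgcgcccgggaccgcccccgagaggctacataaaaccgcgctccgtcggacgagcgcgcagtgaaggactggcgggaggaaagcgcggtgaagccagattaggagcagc

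CDK inhibitors and p53 target genes, often read as senescence genes, had medians near those of all genes or below, 0.31 in T and 0.07 in B cells. In T cells 3 of 17 counted were at least 2-fold lower, where 0.673% of all genes were, namely Gadd45a, Gadd45b and Gadd45g. Higher by 2-fold was 1, Pmaip1, a pro-apoptotic gene, at 7.603, 23.8 and 21.4 CPM (1.38). Cdkn1a, which codes for p21, stood at 9.27, 31.0 and 13.4 CPM in T cells (0.49) and at 11.3, 23.4 and 9.30 CPM in B cells (-0.26), while Cdkn2a, which codes for p16, had too few UMIs in either class. In B cells 4 of 17 were 2-fold lower, where 0.622% of all genes were, and 0 higher, the fourth being Sesn1. Gadd45g stood at 153, 41.6 and 39.7 CPM (-1.92), Gadd45b at 327, 92.8 and 94.4 CPM (-1.78) and Gadd45a at 167, 60.7 and 70.03 CPM (-1.24).

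Other genes named as lowest in B cells had various roles. Id3, which follicular B cells also express, stood at 402, 130.4 and 136 CPM (-1.55), and Tfrc, the transferrin receptor of growing cells, at 71.5, 28.8 and 22.4 CPM (-1.63). Hes1, a Notch target, stood at 60.5, 25.9 and 24.7 CPM (-1.26), and Hist1h2ap, a replication histone, at 222, 118 and 73.2 CPM (-1.59). Among the highest, Cxcl2 at 1.37, 90.2 and 67.0 CPM (4.84), Ifitm3 (1.97), Lgals3, a galectin (1.69), Anxa2 (1.70) and Pycard, an inflammasome adaptor (1.22), are genes of myeloid cells. Anxa2 had 0.52 in B cells without myeloid or platelet UMIs, and Pycard -0.12 in B cells without switched antibody UMIs. Arid3b, a DNA-binding protein, stood at 21.2, 49.8 and 50.6 CPM (1.22), and Leng8 at 44.7, 97.1 and 104 CPM (1.20). AC149090.1, which had no match in the annotation used, stood at 111, 212 and 271 CPM (1.28), and the noncoding RNA Snhg20 at 24.2, 84.3 and 59.1 CPM (1.26). AU020206 stood at 30.8, 90.1 and 70.6 CPM (1.17).

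Some differences were alike in T and B cells and involved abundant transcripts whose counts are uncertain. AY036118 stood at 3551, 768 and 731 CPM in T cells (-2.28) and at 3571, 842 and 787 CPM in B cells (-2.18), and at 3119 and 752 CPM in young and aged-GA cells outside the gates. It is annotated at chr17:39847113-39848035 on the minus strand, inside Gm42418 at chr17:39846958-39848788 on the plus strand and next to Gm26917 at chr17:39843013-39846341, where ribosomal RNA-like reads collect. Gm42418 had -0.10 and Gm26917, at 157, 709 and 632 CPM, 2.004 in T cells, so members of one locus went opposite ways. Gm10076, annotated as a noncoding RNA at chr14:105681828-105682211, had -1.43 in T and -1.47 in B cells.

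Mitochondrially encoded genes were lower, with 0 of 13 higher and 2 lower in each class, the same genes in both. Of all genes, 0.673% in T and 0.622% in B cells were at least 2-fold lower. mt-Atp8, a subunit of the ATP synthase, stood at 402, 288 and 109 CPM in T cells (-1.88) and at 447, 343 and 129 CPM in B cells (-1.79), and mt-Nd4l, a subunit of complex I, had -1.58 and -1.51. Outside both gates these genes had -2.04 and -1.73, so their difference was not particular to lymphocytes. In T cells mt-Atp6 and mt-Nd4 had -0.19 and -0.41, and how reads were split between mitochondrial genes was not tested. The list medians were -0.41 and -0.33. The filter on mitochondrial UMIs bounds this sum, and the median cell held 5.03% mitochondrial UMIs in young and 4.19% in aged-GA T cells. Ribosomal protein genes had medians of -0.22 in T and -0.15 in B cells, with 0 of 82 past 2-fold in either class.

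Some interferon-stimulated genes were higher. In T cells 7 of 33 counted were at least 2-fold higher and 0 lower, at a median of 0.42, and in B cells 5 of 32, at 0.33. Of all genes, 7.39% in T and 3.39% in B cells were at least 2-fold higher. Ifitm3, Ifitm2 and Ifitm1, which neutrophils express strongly, led in T cells with 4.38, 4.05 and 3.87, and without cells that had myeloid or platelet UMIs the median was 0.41 in T and 0.20 in B cells. Centred on the median of all genes, it was 0.12 and 0.11. Ly6a, or Sca-1, stood at 81.9, 244 and 168 CPM in T cells (1.03), and Ifi27l2a at 631, 1520 and 831 CPM (0.40). MHC class I genes had medians of 0.38 in T and 0.31 in B cells, and 1 of 17 was 2-fold higher in T cells, H2-Q6 at 109, 283 and 251 CPM (1.20). For this polymorphic family reads can be shared between paralogs.

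Markers of the gated classes lay close together in both libraries. Of 18 T cell markers in T cells 1 was at least 2-fold higher, Thy1 at 139.5, 276 and 300.4 CPM (1.10), 0 were lower and the median was 0.17. B cell markers in B cells had 1 of 18 higher, again Cd22, and a median of 0.18. The lists hold the Cd3 and Cd79 genes of the gates, which require them in one class and limit them in the other. The values of these genes are thus in part fixed by the choice of cells. The opposite class was less even. In T cells 15 of 16 counted B cell markers were at least 2-fold higher, Igkc at 15.0, 132 and 222 CPM and Cd74 at 16.4, 141 and 205 CPM, while Ighm was level at 145, 129 and 143 CPM. In B cells 1 of 12 T cell markers was 2-fold higher, at a median of 0.63. Of 14 NK cell markers counted in T cells 7 were 2-fold higher and 0 lower. The higher ones were Klrc2 (2.54), Styk1 (2.10), Klre1 (2.05) and Klra9 (1.33), besides Eomes, Fcer1g and Tyrobp. Eomes is also on the memory and effector list, and Fcer1g and Tyrobp are also on the myeloid list. Ncr1 and Klrb1c had 0.18 and 0.58, and Klra8 and Klra4 were on the lower side, at -0.25 and -0.59. Erythroid markers were 2-fold higher for 7 of 12 in each class. Only 3 platelet markers had the 100 UMIs needed to be counted in T cells, and all 3 were 2-fold higher. Pf4 had 0 UMIs in the young library, which allows up to 3, Itga2b 17 and Nrgn 39. Their aged-GA counts were 373, 102 and 322 UMIs. These markers reached the limit through the aged-GA library, so the count of 3 of 3 cannot show how often platelet markers were higher. Of all genes, 7.39% were 2-fold higher in T and 3.39% in B cells.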

How the data were processed

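Peripheral blood mononuclear cells were loaded on 10x Chromium (3′ v3 chemistry), with 1 library each of young, aged and aged-GA mice. The authors mapped reads to mm10 and counted them with Cell Ranger, and the deposited values are raw UMI counts for each gene in each barcode, not normalized. The file headers name version 5.0.0, whereas the methods name another version. The smallest barcodes held about 500 UMIs, so a cut had been made before deposit.

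From the deposited counts, cells were filtered and gated by the UMI limits given with the results, and UMIs were summed per library and gate (Python 3.11.15, numpy 2.4.6, pandas 2.3.3). A level is CPM of that sum. A log2 ratio has 1 CPM added to each level and was taken for genes with at least 100 UMIs over the young and aged-GA libraries. T cells gave 28276829 and 21658968 UMIs, and B cells 8731427 and 24204518. Exact Poisson and binomial intervals (scipy 1.17.1) and limits on a count of 0 cover counting error only. For shares of cells with a UMI, each cell was thinned to 1000 UMIs, and shallower cells were left out (5269 of 5275 young and 3424 of 3427 aged-GA T cells, 2263 of 2268 and 5371 of 5379 B cells remained). No doublet caller was run. Figures were drawn with matplotlib 3.10.9.

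Genes named are the 12 highest and 12 lowest ratios in each class among genes with at least 50 CPM in one library, without haemoglobin, mitochondrial, ribosomal protein, antibody, T cell receptor and gate genes and markers of other cells; members of the gene lists; and Cd4, Cd8a and Cd8b1. Some genes that these rules give are not reported here. Ly6c2, a member of the memory and effector list, and the neighbours of AY036118 were picked out with their values known. The members and lists were chosen with earlier results of these data known. Coordinates are from GENCODE M21 and promoters from RefSeq, both on GRCm38. On simulated counts for T cells, 70.0% of genes changed by a log2 ratio of 2 and 93.6% of unchanged genes came within 0.25 of their true ratio. Alternatives changed the limits on cells and genes, the gate, the pseudocount, the scaling, the depth and the make-up of each class.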

Additional observations from a re-analysis of the deposited data

How the results depend on the processing

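No paired analysis was possible because each group has 1 library and the result comes from no test. The counts of 2-fold genes depended on the settings more than the lists did. Of 900 medians of lists under the alternatives, 764 moved by less than 0.25 and the others by more. The sign changed in 49, by 0.25 or more in 18. Of these the median of NK cell markers in T cells had been past 2-fold, and it was -0.20 without memory UMIs, where it rested on 1 gene. Cell cycle genes in B cells, 0.35, were at -0.17 without myeloid or platelet UMIs, -0.11 after thinning and -0.15 without switched antibody UMIs. CDK inhibitors and p53 target genes in T cells, 0.31, were at -0.14 after thinning, and NK cell markers in B cells, -0.20, at 0.47. Of 705 values of named genes 475 stayed and 229 moved, and Pycard changed sign in B cells without switched antibody UMIs (-0.12). In T cells, 735 higher and 67 lower genes became 186 and 21 with a pseudocount of 10 CPM, 326 and 36 with a minimum of 500 UMIs, 384 and 44 with cells thinned to 1000 UMIs, 135 and 41 without memory UMIs, and 423 and 153 with centred ratios. The higher genes were 438 in T cells without myeloid or platelet UMIs and 435 in CD8 T cells, and the lower genes 106 with abundant gene families left out of the denominator. In B cells, 322 higher and 59 lower genes became 63 and 22 with a pseudocount of 10 CPM, 113 and 33 with a minimum of 500 UMIs, 185 and 35 after thinning, and 187 and 100 with centred ratios; 146 were higher without myeloid or platelet UMIs and 93 lower with a minimum of 20 UMIs. The log2 ratio of the share of T cells, -0.998, was -0.91 at a mitochondrial limit of 5%, -0.91 at a haemoglobin limit of 1%, -1.27 with the strict gate and -0.90 after thinning, and that of B cells, 0.87, was 1.22 at the mitochondrial limit of 5%, 0.80 with the strict gate and 0.93 after thinning. For thinning and the higher minimum fewer UMIs or genes were counted; for the other settings the cause was not tested.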

Other observations

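Genes of lymphocyte traffic and of cell division were not described above as groups. The 17 homing and egress genes counted in T cells had a median log2 ratio of 0.40, with 0 at least 2-fold lower. At least 2-fold higher in aged-GA than in young mice were 5 of them, where 7.39% of all genes were. Besides Cxcr3, they included Itgal, the alpha chain of LFA-1, at 65.0, 183 and 144 CPM in young, aged and aged-GA T cells (1.13). Also among them were Ccr2, a receptor of inflammatory migration, at 9.83, 73.3 and 43.2 CPM (2.03), and the chemokine receptor Cxcr5, at 0.95, 6.004 and 8.17 CPM (2.23). B cell markers summed to 216, 619 and 909 CPM in these T cells, and the part of B cell RNA in the Cxcr5 value was not tested. S1pr1, which lets T cells leave lymph nodes, was level at 245, 271 and 249 CPM (0.02). In B cells S1pr1 stood at 81.9, 139 and 154 CPM (0.90) and Ccr6 at 24.6, 34.0 and 47.2 CPM (0.91), and 2 of 15 genes of the list were 2-fold higher, Cxcr3 and Ccr2. Cxcr3, also counted among the age-associated genes, had 10 UMIs in young and 142 in aged-GA B cells. It was counted through the aged-GA library, where 1% of B cells held 71.1% of its UMIs. Ccr2 is also on the myeloid list. Of all genes in B cells, 3.39% were 2-fold higher.

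Of 15 cell cycle genes counted in T cells, 3 were at least 2-fold higher, where 7.39% of all genes were, and 0 lower, at a median of 0.64. The median was 0.14 in T cells without myeloid or platelet UMIs, 0.19 after thinning and 0.18 without memory UMIs. In B cells it was 0.35, and -0.17 without myeloid or platelet UMIs. Mki67, a marker of dividing cells, stood at 3.04, 26.7 and 10.99 CPM in T cells (1.57) and at 0.80, 7.57 and 4.59 CPM in B cells (1.63), so that aged-GA mice lay between young and aged mice in both classes. Hmgb2, a chromatin protein that resting lymphocytes express too, was lower, at 886, 799 and 702 CPM in T cells (-0.34) and 888, 439 and 474 CPM in B cells (-0.90).

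The other lists are set beside the medians of all genes, 0.30 in T and 0.22 in B cells. Heat shock genes lay below these, with medians of -0.04 and -0.26 and 1 of 12 and 0 of 11 members above the median of all genes, and with Hspa1b at least 2-fold lower in both classes (-1.02 and -1.80). Glycolysis genes had 0.36 and 0.13, antioxidant genes 0.27 and 0.08, genes of the respiratory chain coded in the nucleus 0.15 and 0.02, with 4 and 1 of 37 above the median of all genes, and Gimap genes, GTPases of lymphocyte survival, 0.35 and 0.41.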
